A study of Zea mays with 12 samples.

Results

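Aleurone cells of nkd maize kernels were compared with aleurone cells of B73 kernels at 15 days after pollination, gene by gene. Where a gene had several transcripts, the 1 with the greatest average over the 6 aleurone libraries stood for it. Genes with a mean normalised value of at least 5 were kept, which left 26496 of the 39656 genes in the table. Zein and starch genes are mentioned here only as a measured background, and the text is about the other genes.

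The nkd group had 3 libraries from plants carrying the nkd mutation after 4 generations of backcrossing to B73, and the B73 group had 3 libraries from the wild-type inbred line B73. Both groups came from field-grown plants. Kernels were fixed and embedded in paraffin, and the cells were cut from sections with a laser. The RNA was amplified in 2 rounds with T7 RNA polymerase before library preparation, which favours the 3' part of transcripts. The study also holds 3 nkd and 3 B73 libraries of starchy endosperm, the inner storage tissue, which appear below where the genotype difference in aleurone is set beside it. The labels describe 1 mutant background and give no second allele. They do not say how many ears or kernels went into a library, so the tests here are against the variation among these libraries, which may in part be technical. Replicate 1, 2 and 3 of every group were sequenced on flow cell 1, 2 and 3.

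The aleurone is the outermost layer of the cereal endosperm. It stores oil, minerals and protein, accumulates defence proteins, survives seed drying under abscisic acid, and secretes hydrolases at germination. Its fate depends on position at the endosperm surface and on receptor kinase signalling, in which CR4 and DEK1 act. NKD1 and NKD2 are duplicate transcription factors of the INDETERMINATE domain family, with zinc fingers that bind DNA. In kernels that lack both, the outer endosperm forms several layers of cells with incomplete aleurone character.

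The libraries of the aleurone table held 9929132 to 64001712 reads over 1 transcript per gene, and B73 replicate 2 was the shallowest. Of the 11 aleurone marker names looked for, 8 matched a gene, and 7 of those had reads in both groups. The aleurone marker genes summed to 7482 to 16284 RPM (reads scaled to the library total) in nkd aleurone libraries and 6309 to 11274 in B73 aleurone libraries, against 232 to 1155 in nkd starchy endosperm libraries and 336 to 1706 in B73 starchy endosperm libraries. These sums were chiefly vpp1 and ole1, so they say little about the other aleurone markers. The 2 genes differed in opposite directions, by 1.42 for vpp1 and -1.31 for ole1 on the log2 scale (nkd minus B73). Neither passed (limma adjusted p = 0.199 and 0.125). Of the other aleurone markers, LTP3 was higher in nkd by 2.34 (limma adjusted p = 0.00722) and cr4 by 1.40 (adjusted p = 0.017). LTP3 did not pass in a fit over all 12 libraries. The markers dek1, Sal1 and vp1 did not pass (adjusted p = 0.875, 0.614 and 0.541). The c1 gene, which turns on anthocyanin synthesis in aleurone of coloured stocks, was at 0 in all 6 aleurone libraries. Zein transcripts made up 0.178 to 0.903% of reads in nkd aleurone libraries and 13.9 to 26.6% in B73 aleurone libraries. In starchy endosperm libraries they made up 4.18 to 10.7% in nkd and 24.3 to 39.1% in B73. Markers of starchy endosperm (33 genes, zeins among them) summed to 2248 to 10137 RPM in nkd aleurone and 156691 to 283249 in B73 aleurone libraries. The sums were 53384 to 123594 in nkd and 273397 to 430380 in B73 starchy endosperm libraries. Markers of the basal transfer layer (7 genes, none at 0 in a whole group) summed to 10.1 to 253 RPM in nkd aleurone libraries and 2.08 to 18.6 in B73 aleurone libraries, and nkd replicate 3 was the highest. Markers of the embryo-surrounding region (3 genes) summed to 0.592 to 24.4 in nkd and 0 to 4.17 in B73, those of the embryo (4 genes) to 56.0 to 112 in nkd and 41.6 to 133 in B73, and those of the pericarp and nucellus (5 genes, chiefly expA4) to 69.2 to 169 in nkd and 7.33 to 18.4 in B73. The part of zein transcripts or of other cell types in the differences below was not tested, and in these cell mixtures fewer cells of a type and less RNA per cell cannot be told apart.

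The Nkd genes were both still transcribed. Here and below, values are normalised read counts of replicates 1, 2 and 3 in that order, and log2 differences are on the log2(value + 1) scale with n = 3 libraries per group. Nkd1 (GRMZM2G129261) had 4632, 3979 and 3578 in nkd libraries, against 5992, 5411 and 6911 in B73 libraries, with a log2 difference of -0.59 ± 0.29 (SE) and limma adjusted p = 0.212. The groups did not overlap, but the difference did not pass the threshold. Nkd2 (GRMZM5G884137) had 755, 549 and 463 in nkd libraries, against 2725, 2751 and 2091 in B73 libraries; it fell, with a log2 difference of -2.11 ± 0.31 (SE) and limma adjusted p = 0.00259. Every nkd library was below every B73 library. These are levels of transcript and do not show whether a working protein was made.

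The genotype difference in aleurone was broad. With limma's moderated test on log2(value + 1) and Benjamini-Hochberg adjustment at 0.05, 3868 of 26496 genes differed, which is 14.6% of those tested. Of these, 1675 were higher in nkd aleurone (6.32% of genes tested) and 2193 were lower (8.28%). The median difference over all tested genes was 0.04 on the log2 scale, a level that the authors' scaling between libraries holds near 0. Groups did not overlap for 8918 genes (33.7%), among them 3853 of the called genes. Calls had the same sign on all 3 flow cells for 1672 of the rises and 2190 of the falls. Groups without overlap give the same sign in any pairing of libraries, so these counts add nothing about flow cells. For the same reason, a lack of overlap given for a called gene below adds little to its call. Leaving out B73 replicate 1 reduced the count to 1847 and leaving out B73 replicate 2 or 3 gave 2383 and 2302. A fit over all 12 libraries, which shares 1 estimate of the spread with starchy endosperm, called 1904 genes (7.19%), of which 31.7% were higher in nkd, against 43.3% of the 3868.

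**Figure D1:**
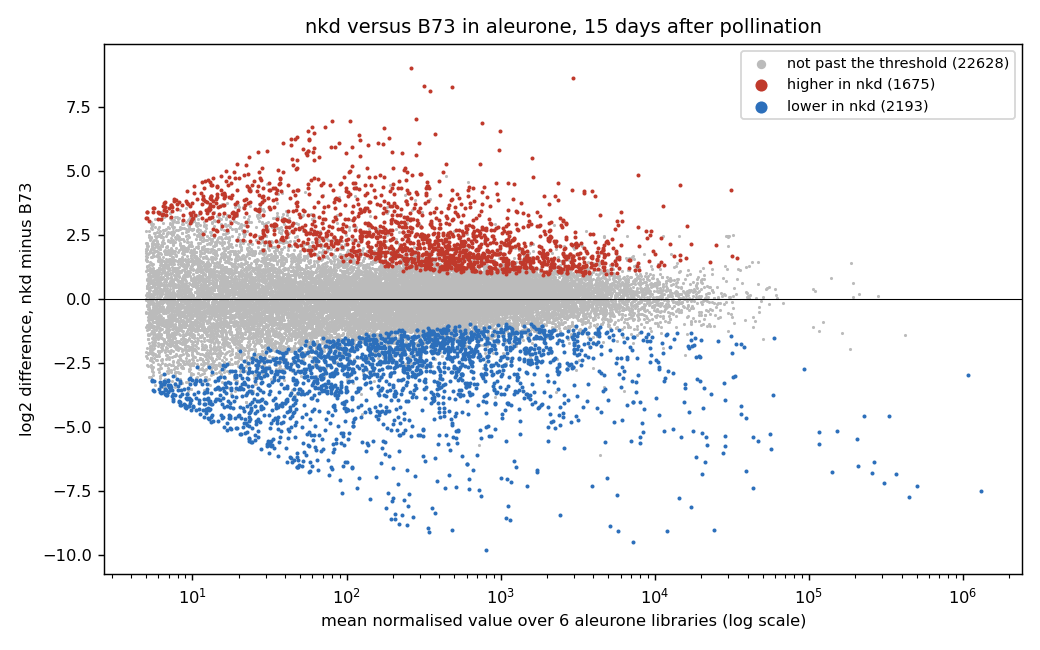
Log2 difference in aleurone (nkd minus B73, y axis) against the mean normalised value over the 6 aleurone libraries (x axis, log scale) for the 26496 tested genes. Grey points are genes that did not pass, red points the 1675 higher in nkd and blue points the 2193 lower in nkd; the falls reach further from 0 than the rises.

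The falls were larger than the rises. The median size of the log2 difference was 2.78 among the falls and 2.31 among the rises. A size of at least 4 was reached by 517 falls (23.6%) and 231 rises (13.8%), and a size of at least 6 by 115 falls and 31 rises. The balance also moved with the level of expression. With zein and starch genes left out, 63 of the 475 genes with a mean of at least 10000 fell (13.3%) and 20 rose (4.21%), while among the 5040 genes with a mean of 1000 to 10000 the counts were 374 falls and 381 rises. At a mean of 20 to 100, falls were again more frequent than rises, 581 (10.6%) against 281 (5.13%) of 5478 genes, and at a mean of 5 to 20 the shares were 4.74% and 3.67%. All 1675 rises and 2156 of the 2193 falls lay outside the zein and starch lists.

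Some genes were near silent in one genotype. Of the falls, 218 had at most 3 reads over the 3 nkd libraries together, and 95 of these had none. Of the rises, 127 had at most 3 reads over the 3 B73 libraries, and 52 had none. Few had a gene name, 8 of the 218 and 7 of the 127. The identifier GRMZM5G837022, picked as an extreme after its values were seen, had 3 reads in the nkd libraries and 5005 in the B73 libraries, a ratio of B73 to nkd of 2053, from the pooled reads of each group over their depth (95% counting interval 702 to 9960). GRMZM2G157113 had 1 read in nkd and 2544 in B73 (ratio of B73 to nkd 3131, interval 561 to 123722). On the other side GRMZM2G569903 had 2040 reads in the nkd libraries and 0 in the B73 libraries, at least 552-fold higher against a floor of 3 reads over the group. GRMZM2G146335 had 1857 reads in nkd and 1 in B73 (ratio of nkd to B73 1509, interval 270.5 to 59625, or 3157 as a ratio of mean normalised values). Intervals and floors cover counting error only.

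Of the 2286 tested genes with a name, 129 rose and 291 fell. Among the 12 largest named rises with a mean of at least 100, Laccase-17 (GRMZM2G305526), an oxidase of lignin precursors, had 304, 149 and 177 in nkd libraries, against 0, 0 and 3.00 in B73 libraries, with a log2 difference of 6.99 ± 0.74 (SE) and limma adjusted p = 0.000617. It was close to absent in B73. The glycine-rich protein gene grp3 (GRMZM2G154954) had 2509, 1637 and 1726 in nkd libraries, against 5.70, 26.5 and 44.4 in B73 libraries, with a log2 difference of 6.56 ± 0.64 (SE) and limma adjusted p = 0.000415. The heat shock factor Hsf26 (GRMZM2G003489) had 3409, 2042 and 319 in nkd libraries, against 10.6, 37.9 and 25.2 in B73 libraries, with a log2 difference of 5.84 ± 0.82 (SE) and limma adjusted p = 0.00206, with nkd replicate 3 well below the other nkd libraries but still above all B73 libraries. The homeobox gene ocl4 (GRMZM2G123140), a factor of the outer cell layer of plant organs, had 3861, 3418 and 2064 in nkd libraries, against 48.8, 155 and 163 in B73 libraries, with a log2 difference of 4.79 ± 0.49 (SE) and limma adjusted p = 0.000567. No nkd value came near a B73 value.

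The remaining rises of that size covered several functions. ACS6 (GRMZM2G054361), an enzyme of ethylene synthesis, had 597, 227 and 280.3 in nkd libraries, against 8.95, 60.6 and 6.60 in B73 libraries, with a log2 difference of 4.34 ± 0.78 (SE) and limma adjusted p = 0.00636. PIP2-4 (GRMZM2G154628), a water channel of the plasma membrane, had 64.2, 112 and 428 in nkd libraries, against 6.51, 7.58 and 0.600 in B73 libraries, with a log2 difference of 4.97 ± 0.89 (SE) and limma adjusted p = 0.00614. tan1 (GRMZM2G039113), which acts in the orientation of the division plane, had 1071, 931 and 1737 in nkd libraries, against 105, 133 and 168 in B73 libraries, with a log2 difference of 3.17 ± 0.37 (SE) and limma adjusted p = 0.000893. The chaperone gene HSP90-1 (GRMZM2G024668) had 11713, 13881 and 5068 in nkd libraries, against 865, 1269 and 1247 in B73 libraries, with a log2 difference of 3.08 ± 0.41 (SE) and limma adjusted p = 0.00165. In all 4 of these every nkd library was above every B73 library, as their selection required. HMG5, a chromatin protein of the high mobility group, rose by 3.18 on the log2 scale, OFP16, of the OVATE family, by 3.29, VP8, named after a mutant whose grain germinates on the cob, by 3.08, and mfs2 by 3.61. ACS6, HMG5 and tan1 were not past the threshold in the fit over all 12 libraries (limma adjusted p = 0.0694, 0.225 and 0.0995).

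The largest named falls were close to loss of the transcript. icl1 (GRMZM2G056369), isocitrate lyase of the glyoxylate cycle, had 1.21, 0 and 0 in nkd libraries, against 1287, 155 and 1468 in B73 libraries. Only 1 read was found in the nkd libraries, and the ratio of B73 to nkd from pooled reads was 5006 (95% counting interval 898 to 197761). As a ratio of mean normalised values it was 2401, with limma adjusted p = 0.000415. por2 (GRMZM2G125023), a water channel of the vacuolar membrane also called TIP2-3, had 13.3, 2.03 and 3.16 in nkd libraries, against 2856, 1853 and 1741 in B73 libraries, with a log2 difference of -8.54 ± 0.59 (SE) and limma adjusted p = 9.76e-05. The chitinase gene chiA (GRMZM2G051943) had 1.21, 0.676 and 1.89 in nkd libraries, against 467, 883 and 891 in B73 libraries, with a log2 difference of -8.35 ± 0.53 (SE) and limma adjusted p = 9.68e-05. These 3 genes were far apart between the groups, with every nkd value under 15. The proteinase inhibitor gene wip1 (GRMZM2G156632) had 2.42, 0 and 0.631 in nkd libraries, against 613, 277 and 218 in B73 libraries, with 3 reads in nkd and a ratio of B73 to nkd of 488 (95% counting interval 167 to 2371). The catalase gene cat2 (GRMZM2G090568), which removes hydrogen peroxide, had 18.18, 16.2 and 7.58 in nkd libraries, against 1268, 1163 and 4109.6 in B73 libraries, with a log2 difference of -7.01 ± 0.56 (SE) and limma adjusted p = 0.000193. b-32 (GRMZM2G063536), a ribosome-inactivating protein of the endosperm, had 76.3, 0.676 and 8.21 in nkd libraries, against 2974, 303 and 2678 in B73 libraries, with a log2 difference of -6.98 ± 1.29 (SE) and limma adjusted p = 0.00721; it varied most within groups, with nkd replicate 1 and B73 replicate 2 nearest to each other.

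**Figure D2:**
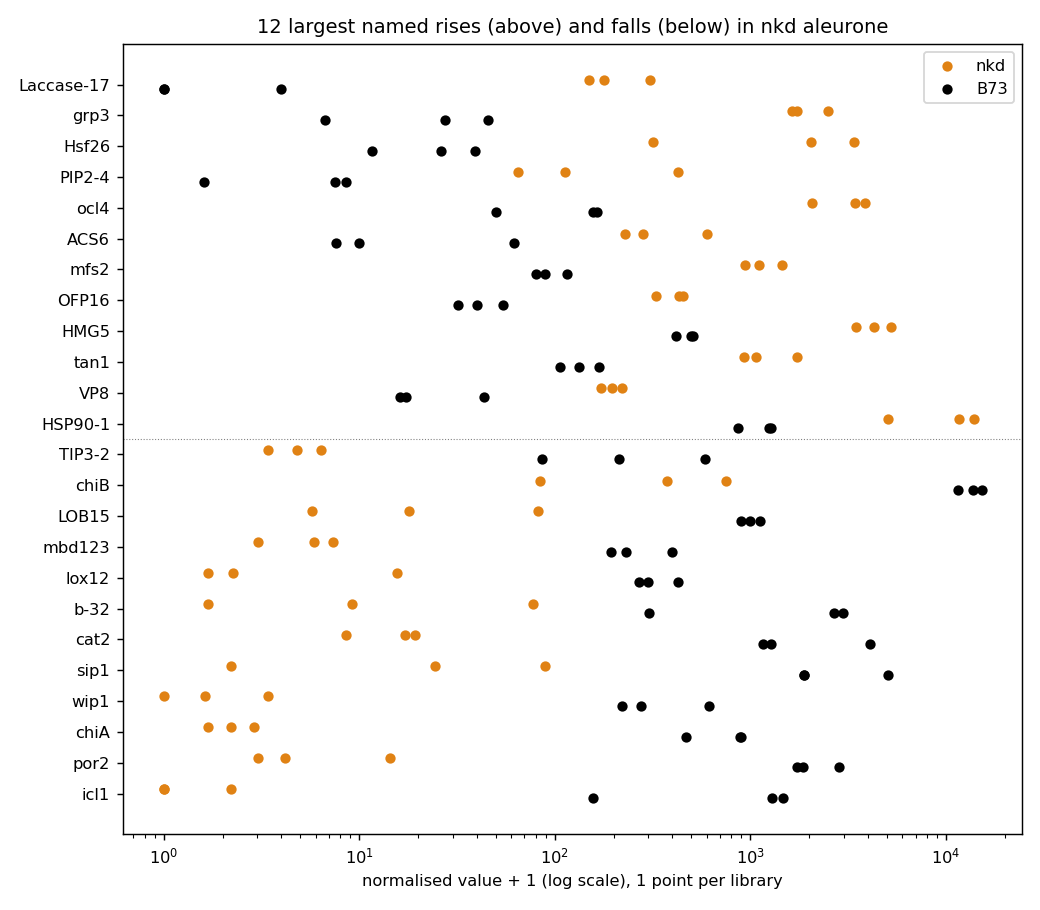
Normalised value (x axis, log scale, value + 1) of the 12 largest named rises and the 12 largest named falls in each aleurone library, 1 row per gene. Orange points are the 3 nkd libraries and black points the 3 B73 libraries; in all 24 rows the points of the 2 groups do not overlap, a property the selection of these genes required.

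The other large falls were sip1 (-7.27 on the log2 scale), lox12, a lipoxygenase (-6.39), mbd123, a protein with a methylated-DNA binding domain (-5.69), LOB15, a LOB domain factor (-5.62), chiB, a chitinase (-5.55), and TIP3-2, a vacuolar water channel (-5.55). Each held its call whichever of the 6 libraries was left out, as did the other 18 of these 24 largest changes. The 24 were picked by size, adjusted p and lack of overlap in the same libraries, so this is not independent support.

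Highly expressed named genes moved in both directions. The phospholipid transfer protein gene plt1 (GRMZM2G101958) had 5750.5, 4168 and 8862 in nkd libraries, against 295427, 144277 and 236718 in B73 libraries, with a log2 difference of -5.18 ± 0.43 (SE) and limma adjusted p = 0.000207. The legumin storage protein gene leg1 (GRMZM2G174883) had 10409, 3022 and 1689 in nkd libraries, against 65634, 66373 and 71680.1 in B73 libraries, with a log2 difference of -4.17 ± 0.58 (SE) and limma adjusted p = 0.00199. hag (GRMZM2G304548) had 4751, 1791 and 2246 in nkd libraries, against 165389, 94125 and 67719 in B73 libraries, with a log2 difference of -5.25 ± 0.47 (SE) and limma adjusted p = 0.000304. The selection of these genes required no overlap, and in each the lowest B73 library was far above the highest nkd library. The tubulin gene TUB1 (GRMZM2G164696) had 48333, 42092 and 31645 in nkd libraries, against 9127, 9143 and 9599 in B73 libraries, with a log2 difference of 2.11 ± 0.33 (SE) and limma adjusted p = 0.00318. Its B73 values lay close together, and all nkd values were above them. sdh1 fell by 2.70, and adh1, alcohol dehydrogenase, by 1.75 on the log2 scale. CSD4 rose by 1.47. The calls of adh1 and CSD4 were lost in some leave-one-out fits (limma adjusted p up to 0.0699 and 0.077). The glycine-rich protein gene grp1, with a mean of 1.07e+06, fell by 2.94 and pdi by 1.75 (limma adjusted p = 0.0321 and 0.0381). Both calls were lost in 5 leave-one-out fits (limma adjusted p up to 0.174 and 0.127). The call of grp1 was also lost with quantile scaling (limma adjusted p = 0.336), and that of pdi in the 12-library fit (limma adjusted p = 0.0529).

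Genes of cell division were higher in nkd aleurone wherever they passed. Of 19 tested cell cycle regulators, 8 rose and 0 fell (42.1% higher, against 6.32% of all genes), with a median log2 difference of 1.41 against 0.04 over all genes. They comprised the cyclin genes cyclin4, cyclin8, cyclin9, cyc1 and cyc3, the spindle checkpoint gene mad2, the retinoblastoma-related gene rbr3 and the kinase gene wee1, an inhibitor of cyclin-dependent kinases. cyclin9 (GRMZM2G017081) had 2099, 3109 and 5555 in nkd libraries, against 640.4, 386 and 822 in B73 libraries, with a log2 difference of 2.49 ± 0.43 (SE) and limma adjusted p = 0.00525. cyc3 (GRMZM2G073671) had 1013, 1326 and 1762 in nkd libraries, against 157, 205 and 230.5 in B73 libraries, with a log2 difference of 2.77 ± 0.34 (SE) and limma adjusted p = 0.00119. mad2 (GRMZM2G047143) had 1666, 2367 and 2614 in nkd libraries, against 479, 637 and 713 in B73 libraries, with a log2 difference of 1.85 ± 0.32 (SE) and limma adjusted p = 0.00521. All 3 separated the groups without overlap. Of the 8 calls, 5 held whichever library was left out (cyc1, cyc3, cyclin8, cyclin9 and mad2). The list had 5 rises without B73 replicate 1 and 3 rises in the 12-library fit.

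Of 15 tested DNA replication genes, 5 rose and 0 fell (33.3% higher, against 6.32% of all genes), with a median of 0.94. PCNA (GRMZM2G030523), the sliding clamp of DNA polymerase, had 5254, 7907 and 7354 in nkd libraries, against 1258, 1909.7 and 1994 in B73 libraries, with a log2 difference of 2.00 ± 0.32 (SE) and limma adjusted p = 0.0039. A second clamp gene, pcna2, rose by 2.02 and the ribonucleotide reductase subunit gene RNRS2 by 2.71 on the log2 scale, and 2 subunits of the replicative helicase, MCM6 and MCM7, rose by 2.21 and 1.46. For MCM6 the groups were close, since B73 replicate 2 was just below nkd replicate 3. Of the 5 calls, 3 held whichever library was left out (PCNA, pcna2 and RNRS2). The list held 3 rises without nkd replicate 2 or B73 replicate 1 or 3 and 2 rises in the 12-library fit. MCM7 missed the threshold with the flow cell as a replicate block (limma adjusted p = 0.0563). Of 11 histone genes 3 rose, the linker histone genes hon101 and his1a and the H3 gene H3C2, and 0 fell (27.3% higher and 0% lower). H3C2 (GRMZM2G401581) had 7583, 3626 and 5682 in nkd libraries, against 1167, 1334 and 1938 in B73 libraries, with a log2 difference of 1.90 ± 0.36 (SE) and limma adjusted p = 0.00824, with no overlap. Of the 3 histone calls, 1 held whichever library was left out (H3C2). The list gave 1 rise without nkd replicate 1 or B73 replicate 1 or 2, 8 rises in DESeq2 and 5 rises in the 12-library fit.

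Of 22 kinesin and microtubule genes, 8 rose and 0 fell (36.4% higher, against 6.32% of all genes), with a median of 1.16. The kinesin motor gene KIN13 (GRMZM2G034828) had 1475, 1758 and 3481 in nkd libraries, against 269, 239 and 304 in B73 libraries, with a log2 difference of 2.95 ± 0.37 (SE) and limma adjusted p = 0.00134. KIN8 (GRMZM2G132371) had 2243, 3828 and 2803 in nkd libraries, against 605, 758 and 762 in B73 libraries, with a log2 difference of 2.03 ± 0.31 (SE) and limma adjusted p = 0.00307. In both, every nkd library was above every B73 library. The others were the kinesin genes kin2 and kin9 and the tubulin genes TUB1, tub5, TUB8 and TUBB2. Of the 8 calls, 6 held whichever library was left out. The list showed 3 rises in the 12-library fit. kin9 missed the threshold with the flow cell as a replicate block (limma adjusted p = 0.0801). Of 21 actin genes 2 rose (9.52% higher and 0% lower), an actin gene (GRMZM2G126190) by 1.76 and a myosin gene (GRMZM2G445423) that had 0 reads in the B73 libraries and was at least 217-fold higher in nkd, though in nkd replicate 1 it was near the floor. Of the 2 actin calls, 1 held whichever library was left out (actin). The list had 1 rise without nkd replicate 2 or 3 or B73 replicate 1, 2 or 3 and 1 fall in DESeq2.

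**Figure D3:**
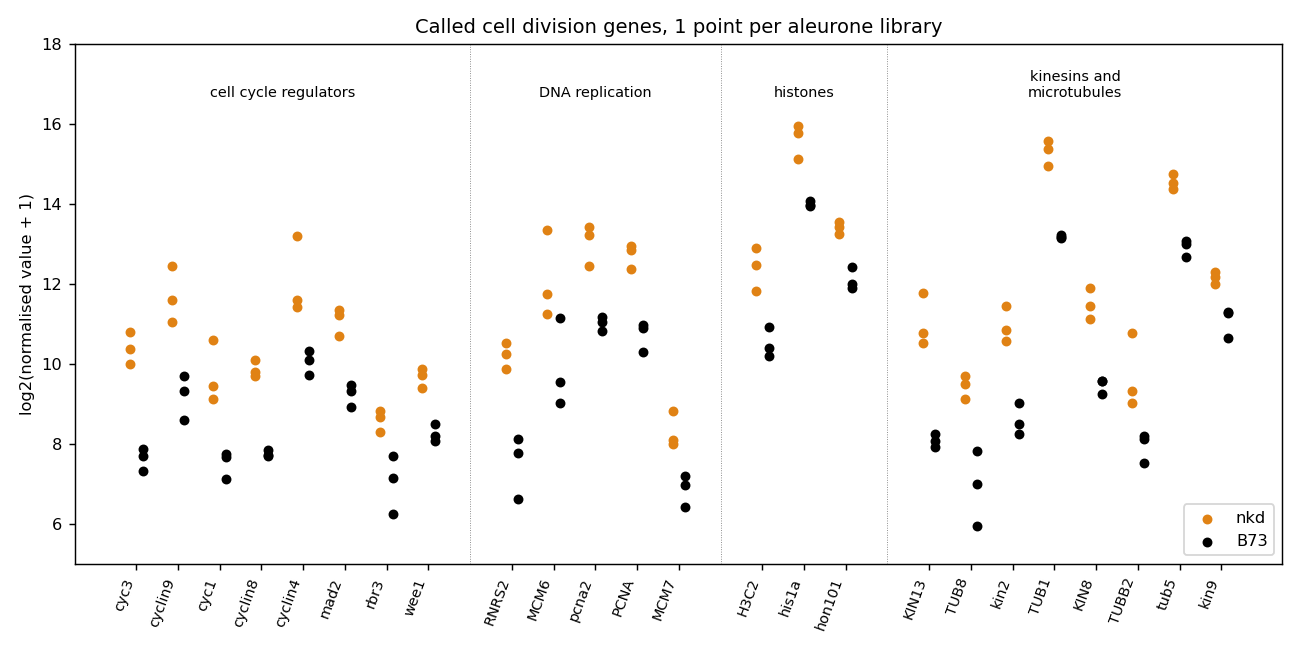
Log2 of the normalised value + 1 of called cell division genes (y axis) in each aleurone library, 1 column per gene, grouped into cell cycle, DNA replication, histones, and kinesins and microtubules. Orange points are nkd libraries and black points B73 libraries; nkd points lie above B73 points in every column.

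Polarity and receptor kinase genes also moved. Of 7 ROP GTPase genes, which encode small switches of cell polarity, 3 rose and 1 fell (42.9% higher and 14.3% lower). Over all genes the shares were 6.32% higher and 8.28% lower. rop9 (GRMZM5G803949) had 18698, 17997 and 4775 in nkd libraries, against 1332, 1728 and 1879 in B73 libraries, with a log2 difference of 2.85 ± 0.51 (SE) and limma adjusted p = 0.00607. rop2 (GRMZM5G846811) had 7505, 8893 and 8064 in nkd libraries, against 3064, 2694 and 2986 in B73 libraries, with a log2 difference of 1.48 ± 0.28 (SE) and limma adjusted p = 0.00761, and rop6 rose by 1.78 on the log2 scale. rop3 (GRMZM2G100505) fell instead. It had 32.7, 56.1 and 47.3 in nkd libraries, against 252, 379 and 390.1 in B73 libraries, with a log2 difference of -2.89 ± 0.41 (SE) and limma adjusted p = 0.00221. In all 4 genes the groups did not overlap. All 4 ROP calls held whichever library was left out. The list held 0 falls in the 12-library fit. Of 16 receptor-like kinase genes 4 rose and 2 fell (25% higher and 12.5% lower). The risers were PepR1 (2.79 on the log2 scale), pangloss2, which acts in asymmetric cell division (2.55), serk1 (2.54) and the aleurone fate gene cr4 (1.40). cr4 (GRMZM2G051637) had 1214, 1659.7 and 1151 in nkd libraries, against 410.1, 614 and 499 in B73 libraries, and its groups did not overlap. Another known fate gene, dek1 (GRMZM2G321753), had 553, 768 and 535 in nkd libraries, against 597, 701 and 661 in B73 libraries, with overlapping groups and limma adjusted p = 0.875. Of the 6 calls, 2 held whichever library was left out (PepR1 and serk1). The list gave 2 rises without B73 replicate 1, 2 rises in the 12-library fit, 0 to 1 falls whichever 1 library was left out, 1 fall in the 12-library fit and 1 fall with the flow cell as a block.

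Auxin genes moved in both directions. Of 50 tested genes, 10 rose and 6 fell (against 6.32% and 8.28% of all genes), with a median of -0.07. The auxin response factor genes ARF9, ARF11 and ARF30, the genes named AUX3, AUX6, AUX9, AUX22 and AUX1 (GRMZM2G000158), the auxin-conjugating GH3 (GRMZM2G378106) and the efflux carrier gene PIN9 rose. AUX3 (GRMZM2G004696) had 3382, 2516 and 2865 in nkd libraries, against 1047, 807 and 955 in B73 libraries, with a log2 difference of 1.64 ± 0.29 (SE) and limma adjusted p = 0.00575. PIN9 (GRMZM5G859099) had 0 reads in B73 and was at least 33.6-fold higher in nkd. The auxin synthesis gene TAR3 (GRMZM2G141810), of the tryptophan aminotransferase family, fell. It had 2799, 2117 and 2613 in nkd libraries, against 39714, 18142 and 29034 in B73 libraries, with a log2 difference of -3.47 ± 0.36 (SE) and limma adjusted p = 0.000582. PIN5c (GRMZM2G040911), a carrier of the endoplasmic reticulum in Arabidopsis relatives, had 73.9, 64.2 and 184 in nkd libraries, against 1238, 659 and 1338 in B73 libraries, with a log2 difference of -3.41 ± 0.48 (SE) and limma adjusted p = 0.00207. In both, all nkd libraries were below all B73 libraries. The influx carrier gene aux1 (GRMZM2G129413), ARF4, AUX14 and bif2, a kinase of auxin transport, made up the other falls. Of the 16 calls, 6 held whichever library was left out. The list showed 5 rises without nkd replicate 2 or B73 replicate 1 or 2, 4 rises in the 12-library fit, 2 to 3 falls without nkd replicate 1 or 2 or B73 replicate 1, 2 or 3 and 3 falls in the 12-library fit. ARF30, AUX14 and ARF4 missed the threshold with the flow cell as a replicate block (limma adjusted p = 0.0678, 0.0754 and 0.0783).

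The abscisic acid genes that passed were lower in nkd aleurone. Of 18 tested genes of this hormone, which governs seed dormancy and drying, 7 fell and 0 rose (38.9% lower, against 8.28% of all genes), with a median of -1.32. Of the 7, 6 encode receptors of the PYL family and the other is the aldehyde oxidase gene AO1. PYL6 (GRMZM2G141382) had 218, 73.04 and 37.9 in nkd libraries, against 968, 1235 and 800.1 in B73 libraries, with a log2 difference of -3.52 ± 0.57 (SE) and limma adjusted p = 0.00407. PYL3 (GRMZM2G154987) had 129.7, 224 and 28.4 in nkd libraries, against 797, 2179 and 2179 in B73 libraries, with a log2 difference of -4.03 ± 0.71 (SE) and limma adjusted p = 0.00583. AO1 (GRMZM2G141535) had 54.5, 60.2 and 109.8 in nkd libraries, against 374, 341 and 649 in B73 libraries, with a log2 difference of -2.60 ± 0.43 (SE) and limma adjusted p = 0.00452. Groups did not overlap in any of the 3. The receptor genes PYL9, PYL8 and 2 genes called PYL10 (GRMZM2G165567 and GRMZM2G063882) fell by 1.97, 1.22, 1.57 and 2.80 on the log2 scale. Of the 7 calls, 5 held whichever library was left out (AO1, PYL10 (GRMZM2G165567), PYL3, PYL6 and PYL9). PYL8 missed the threshold with the flow cell as a replicate block (limma adjusted p = 0.0548). Of 24 phosphatase 2C genes, a family of which the receptors inhibit some members, 1 fell (PP2C8) and 0 rose. Their median was 0.58, however, 16 had a positive log2 difference, the groups did not overlap for 14 (against 33.7% of all genes), and 13 were at unadjusted p under 0.05 (against 29.0% of all genes). The phosphatase call was lost on leaving out at least 1 library. The list had 1 rise without B73 replicate 3, 3 rises in DESeq2, 1 rise with the flow cell as a block, 0 to 2 falls without B73 replicate 1, 2 or 3 and 2 falls in DESeq2.

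Cytokinin genes that passed also fell, 5 of 26 (19.2%, against 8.28% of all genes), with 0 rises and a median of -0.84. Of these, 4 encode cytokinin oxidases, which degrade the hormone, and crr2 encodes a response regulator. crr2 (GRMZM2G392101) had 229, 197 and 126 in nkd libraries, against 1115, 3050.2 and 1981 in B73 libraries, with a log2 difference of -3.40 ± 0.43 (SE) and limma adjusted p = 0.00128. cko1 (GRMZM2G146644) had 48.5, 39.9 and 61.2 in nkd libraries, against 251, 663 and 905 in B73 libraries, with a log2 difference of -3.41 ± 0.51 (SE) and limma adjusted p = 0.00272. CKX12 (GRMZM2G008792) had 0, 0.676 and 1.26 in nkd libraries, against 159, 30.3 and 57.6 in B73 libraries, with 3 reads in nkd and a ratio of B73 to nkd of 123 (95% counting interval 41.6 to 598) and limma adjusted p = 0.00297. The nkd values of these 3 genes were all below the B73 values. Of the 5 calls, 3 held whichever library was left out (cko1, CKX12 and crr2). The list held 1 rise without nkd replicate 3, 1 rise in DESeq2, 3 falls without nkd replicate 2 or 3 or B73 replicate 1, 2 or 3, 8 falls in DESeq2 and 3 falls in the 12-library fit. Of 6 gibberellin genes 2 fell and 0 rose (33.3% lower, against 8.28% of all genes). They were an1, which makes the first committed precursor (-3.84 on the log2 scale), and d9, a DELLA repressor (-1.38). Each of the 2 gibberellin calls was lost on leaving out at least 1 library. The list gave 0 to 1 falls without nkd replicate 2 or 3 or B73 replicate 1, 2 or 3, 1 fall in the 12-library fit and 1 fall with the flow cell as a block. d9 missed the threshold with the flow cell as a replicate block (limma adjusted p = 0.0602).

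Lipoxygenase and jasmonate genes did not move one way. Of 23 tested, 4 rose and 4 fell (17.4% higher and 17.4% lower, against 6.32% and 8.28% of all genes). lox1 (GRMZM2G156861) had 25565, 10204 and 13070.3 in nkd libraries, against 1545, 2849 and 3101 in B73 libraries, with a log2 difference of 2.65 ± 0.43 (SE) and limma adjusted p = 0.00382. lox12, above, fell, and the groups did not overlap for either gene. The allene oxide synthase genes aos2 and aos3 rose, as did lox4, and the allene oxide cyclase gene aoc1, the reductase gene opr7 and lox9 fell. Of the 8 calls, 2 held whichever library was left out (lox1 and lox12). The list showed 1 to 2 rises without nkd replicate 1 or 2 or B73 replicate 1, 2 or 3, 2 rises in the 12-library fit, 2 rises with the flow cell as a block, 1 to 2 falls without nkd replicate 1 or B73 replicate 1, 2 or 3 and 2 falls in the 12-library fit. aos2, aos3 and lox9 missed the threshold with the flow cell as a replicate block (limma adjusted p = 0.0581, 0.0729 and 0.0816).

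**Figure D4:**
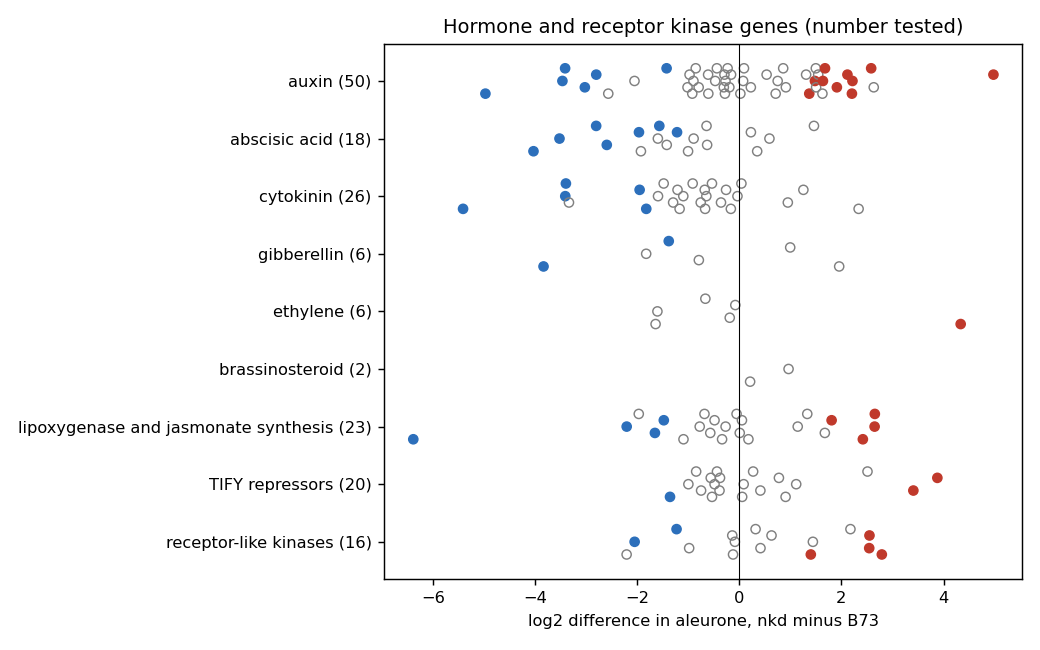
Log2 difference in aleurone (nkd minus B73, x axis) of the tested members of 8 hormone lists and the receptor-like kinases, 1 row of points per list. Filled points passed the test and open points did not; abscisic acid and cytokinin points that passed all lie left of 0, and auxin points lie on both sides.

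MYB, NAC, MADS and bZIP factor genes that passed were falls, although in 3 of these 4 families the share of falls was near that of all genes. Of 44 MYB, 17 NAC, 27 MADS and 32 bZIP genes, 4, 4, 3 and 3 fell and 0 rose. The shares of falls, 9.09% for MYB, 11.1% for MADS and 9.38% for bZIP, were close to the 8.28% of all genes, and that of NAC was 23.5%. The 4 families had medians of -0.33, -0.96, -0.49 and 0.10. Myb56 (GRMZM2G041415) had 78.8, 22.3 and 63.8 in nkd libraries, against 1387, 1482 and 1811 in B73 libraries, with a log2 difference of -4.97 ± 0.48 (SE) and limma adjusted p = 0.000392. nac4 (GRMZM2G154182), whose database entry also carries the name Asn1, had 1188, 505 and 982 in nkd libraries, against 25429, 11200.5 and 8582 in B73 libraries, with a log2 difference of -4.01 ± 0.47 (SE) and limma adjusted p = 0.000952. TCP7 (GRMZM2G035944), the only call among 7 TCP genes, had 18.18, 6.76 and 14.5 in nkd libraries, against 422, 455 and 288 in B73 libraries, with a log2 difference of -4.85 ± 0.50 (SE) and limma adjusted p = 0.000563. Each nkd library lay below each B73 library in these 3 genes. The bZIP falls included o2, the factor of storage protein genes (-2.45 on the log2 scale). Of the 4 MYB calls, 2 held whichever library was left out (MYB34 and Myb56). The list had 2 rises without nkd replicate 3 or B73 replicate 3, 3 rises in DESeq2, 2 falls without B73 replicate 3 and 2 falls in the 12-library fit. Of the 4 NAC calls, 1 held whichever library was left out (nac4). The list held 1 rise without nkd replicate 2, 1 rise in DESeq2, 1 to 2 falls without nkd replicate 2 or B73 replicate 1, 2 or 3 and 2 falls in the 12-library fit. Each of the 3 MADS calls was lost on leaving out at least 1 library. The list gave 1 rise in DESeq2, 0 falls without nkd replicate 2 or B73 replicate 1, 2 or 3, 0 falls in edgeR, 0 falls in the 12-library fit and 1 fall with the flow cell as a block. Of the 3 bZIP calls, 1 held whichever library was left out (o2). The list showed 1 rise without B73 replicate 3 and 1 fall without B73 replicate 1 or 3.

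Other families had calls in both directions. Of 15 WRKY genes 2 rose and 4 fell (13.3% and 26.7%, against 6.32% and 8.28% of all genes), and of 31 AP2/ERF genes 3 rose and 4 fell (9.68% and 12.9%, near those shares). EREB71 (GRMZM2G113060) had 44.8, 69.0 and 165 in nkd libraries, against 0.814, 0 and 6.002 in B73 libraries, with a log2 difference of 5.12 ± 0.88 (SE) and limma adjusted p = 0.00532. ERF1 (GRMZM2G053503) had 492, 319.9 and 263 in nkd libraries, against 3345, 2497 and 1922 in B73 libraries, with a log2 difference of -2.86 ± 0.35 (SE) and limma adjusted p = 0.00121. The groups of both genes were apart. Of 33 homeobox genes 2 rose, ocl4 and ocl1 of the outer cell layer family (1.67 for ocl1), and 4 fell (6.06% and 12.1%). Of 20 SBP genes 1 rose and 2 fell (5% and 10%, near the 6.32% and 8.28% of all genes). The riser, sbp3 (GRMZM2G101499), rose by 3.97 on the log2 scale, a call that held whichever library was left out. The 2 SBP falls were both lost on leaving out any 1 of the 3 B73 libraries and in the 12-library fit, and 1 was called without nkd replicate 2 or 3 and 5 in DESeq2. Of 10 heat shock factor genes Hsf26 and Hsf03 rose and Hsf01 fell (20% and 10%). The call of Hsf03 was lost without B73 replicate 2 or 3 or nkd replicate 1, and that of Hsf01 without B73 replicate 1, 2 or 3 or nkd replicate 2. Of 8 NF-Y genes 2 fell and 0 rose (25% lower, with 1 fall in the 12-library fit). CA5P6 (GRMZM2G375448) was at 0 in all nkd libraries and had 121, 45.5 and 97.8 in B73 libraries, at least 133-fold lower in nkd. Of the 6 WRKY calls, 4 held whichever library was left out (WRKY, WRKY1, WRKY3 and WRKY72). The list had 0 rises in the 12-library fit, 2 falls without B73 replicate 1, 2 or 3, 2 falls in edgeR and 1 fall in the 12-library fit. Of the 7 AP2/ERF calls, 3 held whichever library was left out (EREB171, EREB71 and ERF1). The list held 1 fall without nkd replicate 2 or B73 replicate 1, 2 or 3, 2 falls in edgeR, 1 fall in the 12-library fit and 2 falls with the flow cell as a block. Of the 6 homeobox calls, 2 held whichever library was left out (Hb2 (GRMZM2G168898) and ocl4). The list gave 1 rise without B73 replicate 1 or 2, 1 rise in the 12-library fit, 1 to 2 falls without nkd replicate 2 or B73 replicate 1 or 2 and 1 fall in the 12-library fit.

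The water channel genes that passed were falls with 1 exception. Of 22 tested aquaporin genes 5 fell and 1 rose (22.7% and 4.55%, against 8.28% and 6.32% of all genes), with a median of -1.03. The vacuolar channels TIP4-4 and TIP2-2 fell besides por2 and TIP3-2. PIP2-1 (GRMZM2G014914), of the plasma membrane, had 12538, 2236 and 3829 in nkd libraries, against 72781, 54085 and 24049 in B73 libraries, with a log2 difference of -3.26 ± 0.64 (SE) and limma adjusted p = 0.00915. TIP4-4 (GRMZM2G093090) had 115, 34.5 and 108 in nkd libraries, against 968, 822 and 1349.9 in B73 libraries, with a log2 difference of -3.74 ± 0.49 (SE) and limma adjusted p = 0.00157. In both genes the nkd values were below the B73 values without overlap, and PIP2-4 was the one riser. Of the 6 calls, 5 held whichever library was left out (PIP2-1, PIP2-4, por2, TIP3-2 and TIP4-4). The list showed 8 falls without B73 replicate 3 and 9 falls in DESeq2. TIP2-2 missed the threshold with the flow cell as a replicate block (limma adjusted p = 0.0551). Of 28 ion and metal transporter genes 1 rose and 3 fell (3.57% and 10.7%), among the falls the metal transporter Nramp1 (-5.26) and the phosphate transporter pht7 (-4.86). Of the 4 transporter calls, 2 held whichever library was left out (Nramp1 and pht7). The list had 0 rises whichever 1 library was left out, 0 rises in edgeR, 0 rises with the flow cell as a block, 5 falls in DESeq2 and 1 fall in the 12-library fit. naat1, which acts in the synthesis of iron chelators, fell by 2.57 on the log2 scale as the only call among 8 iron chelation and storage genes.

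The defence genes that passed were lower in nkd aleurone. Of 18 protease inhibitor and defence genes 10 fell and 0 rose (55.6% lower, against 8.28% of all genes), with a median of -1.73. The proteinase inhibitor gene MPI (GRMZM2G028393) had 5535, 1421 and 559 in nkd libraries, against 44839, 16869 and 23523 in B73 libraries, with a log2 difference of -3.99 ± 0.73 (SE) and limma adjusted p = 0.00675. The cystatin gene cc6 (GRMZM2G401328), an inhibitor of cysteine proteases, had 229, 59.5 and 232 in nkd libraries, against 5950.4, 1732 and 2208 in B73 libraries, with a log2 difference of -4.26 ± 0.61 (SE) and limma adjusted p = 0.00231. cc10 fell by 3.64 and cc3 by 1.51 on the log2 scale. The values of MPI and cc6 were lower in every nkd library than in every B73 library. Of the 10 calls, 7 held whichever library was left out. The list held 6 falls in the 12-library fit. Of 5 glucanase and chitinase genes 4 fell, all chitinases, and the glucanase gene glucA (GRMZM2G433365) rose and was at 0 in B73, with 20.6, 13.5 and 20.8 in nkd libraries, against 0, 0 and 0 in B73 libraries.

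Of 23 glutathione S-transferase genes, which conjugate toxic compounds, 9 fell and 2 rose (39.1% and 8.70%, against 8.28% and 6.32% of all genes), with a median of -1.19. gst30 (GRMZM2G044383) had 458, 52.1 and 56.2 in nkd libraries, against 2784, 2224 and 7959 in B73 libraries, with a log2 difference of -5.04 ± 0.80 (SE) and limma adjusted p = 0.00366. gst5 (GRMZM2G308687) had 474, 402 and 423 in nkd libraries, against 1805, 1967 and 4254 in B73 libraries, with a log2 difference of -2.51 ± 0.37 (SE) and limma adjusted p = 0.00272. gst41 (GRMZM2G097989) rose instead. It had 3924, 1656 and 5498 in nkd libraries, against 240.1, 254 and 1125 in B73 libraries, with a log2 difference of 3.00 ± 0.63 (SE) and limma adjusted p = 0.013. Groups did not overlap for these 3 genes. Of the 11 calls, 4 held whichever library was left out (GST25, gst30, gst31 and gst5). The list gave 0 to 1 rises without nkd replicate 1 or 3 or B73 replicate 1, 2 or 3, 1 rise in the 12-library fit, 1 rise with the flow cell as a block, 4 to 5 falls without B73 replicate 1, 2 or 3 and 3 falls in the 12-library fit.

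In central metabolism the genes that passed were falls. In the citric acid and glyoxylate cycles 3 of 15 genes fell, against 8.28% of all genes, and 0 rose. They were icl1, the malate synthase gene mas1 and the malic enzyme gene me2, which missed the threshold with the flow cell as a block (limma adjusted p = 0.0535). mas1 (GRMZM2G102183) had 54.5, 54.1 and 63.1 in nkd libraries, against 2740.0, 951 and 4086 in B73 libraries, with a log2 difference of -5.24 ± 0.50 (SE) and limma adjusted p = 0.000399, so both enzymes particular to the glyoxylate cycle were lower in every nkd library. Without nkd replicate 3 the list had 1 rise, and DESeq2 called 5 falls. Of 19 genes of glycolysis and fermentation 3 fell (adh1, pdc2 and GAPCP; 15.8%), of 21 amino acid genes 5 fell (gln1, gln2, gln4, asn2 and lkrsdh1, which degrades lysine; 23.8%), and 0 rose in either list. gln1 (GRMZM2G098290), a glutamine synthetase gene, had 224, 73.7 and 133 in nkd libraries, against 909, 602 and 1049.8 in B73 libraries, with a log2 difference of -2.67 ± 0.45 (SE) and limma adjusted p = 0.00483. The groups of gln1 did not overlap. In lipid metabolism 2 of 17 fatty acid and oil genes fell, the oleate desaturase gene fad2 (-2.11) and fad7 (-1.03), and none of them rose. This share, 11.8%, was near the 8.28% of all genes. The median of the list was 0.38, and 10 of the 17 had a positive log2 difference. Of the 2 fatty acid calls, 1 held whichever library was left out (fad2). The list showed 1 rise without nkd replicate 1, 1 rise in DESeq2, 1 fall whichever 1 library was left out, 1 fall in edgeR, 1 fall in the 12-library fit and 1 fall with the flow cell as a block. fad7 missed the threshold with the flow cell as a replicate block (limma adjusted p = 0.0989). Carotenoid genes included 2 falls of 9 (22.2%), y1, phytoene synthase (-3.47), and pds1 (-1.70), with 1 fall without B73 replicate 1. Each of the 3 fermentation calls was lost on leaving out at least 1 library. The list had 0 to 1 falls without nkd replicate 1 or 2 or B73 replicate 1, 5 falls in DESeq2 and 1 fall in the 12-library fit. Of the 5 amino acid calls, 1 held whichever library was left out (gln1). The list held 1 to 2 rises without nkd replicate 2 or 3, 2 rises in DESeq2, 1 to 3 falls without nkd replicate 2 or 3 or B73 replicate 1, 2 or 3, 2 falls in the 12-library fit and 3 falls with the flow cell as a block. gln2 and asn2 missed the threshold with the flow cell as a replicate block (limma adjusted p = 0.0582 and 0.0619).

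Growth and cell wall genes held further changes. Of 7 ARGOS genes, which affect organ size, 3 fell and 0 rose (42.9% lower, against 8.28% of all genes). ARGOS8 (GRMZM2G354338) had 8.48, 19.6 and 5.68 in nkd libraries, against 321, 436 and 379.9 in B73 libraries, with a log2 difference of -5.11 ± 0.52 (SE) and limma adjusted p = 0.000567. Of 11 expansin genes, which loosen cell walls, expA4 and expa2 rose and expB6 and expa1 fell. The shares were 18.2% higher and 18.2% lower, against 6.32% and 8.28% of all genes. expA4 (GRMZM2G445169) had 5507, 2146 and 2291 in nkd libraries, against 352, 451 and 657 in B73 libraries, with a log2 difference of 2.67 ± 0.42 (SE) and limma adjusted p = 0.00365 and is 1 of the pericarp markers named above. Its groups did not overlap. Of the 4 expansin calls, 2 held whichever library was left out (expA4 and expB6). The list gave 1 rise without nkd replicate 1 or 3 or B73 replicate 1 or 2, 1 rise in edgeR, 1 rise in the 12-library fit, 1 fall without nkd replicate 2 or B73 replicate 1 or 2, 1 fall in edgeR, 0 falls in the 12-library fit and 1 fall with the flow cell as a block. expa1 missed the threshold with the flow cell as a replicate block (limma adjusted p = 0.0728). Of 9 large heat shock protein and chaperonin genes 3 rose (HSP90-1, hsp1 and hsp101), hsp101 not with the flow cell as a block (limma adjusted p = 0.0589), and 0 of 6 small heat shock protein genes passed in either direction. The 3 rises were 33.3% of the large ones, against 6.32% of all genes. There was 1 rise among the large ones in the 12-library fit, and DESeq2 called 5. The median of the small ones was 0.63, with 2 at unadjusted p under 0.05 in limma, 0 called by edgeR and 3 by DESeq2, of which 1 was higher and 2 were lower in nkd. With the flow cell as a block limma called 2 of the small ones higher, and 1 without B73 replicate 1 or nkd replicate 3.

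Of 46 chromatin and DNA methylation genes 4 rose and 2 fell (8.70% and 4.35%, near the 6.32% and 8.28% of all genes). The DNA methyltransferase gene met5 (GRMZM2G005310) had 5763, 7567 and 6559 in nkd libraries, against 1475, 2019.6 and 1973 in B73 libraries, with a log2 difference of 1.87 ± 0.29 (SE) and limma adjusted p = 0.00344. The histone methyltransferase gene mez1 (GRMZM2G157820) had 534, 659 and 1543 in nkd libraries, against 3565, 2596 and 3748 in B73 libraries, with limma adjusted p = 0.0122; it fell by 2.00 ± 0.42 (SE) on the log2 scale. Neither gene overlapped between groups. HDA108, hat1 and chr124 were the other rises and mbd123 the other fall. Of the 6 calls, 3 held whichever library was left out (hat1, mbd123 and met5). The list showed 2 rises without B73 replicate 1 and 1 fall without B73 replicate 1 or 3.

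In other large lists no gene passed. These were 35 cytosolic ribosomal protein genes (median 0.11) and 15 RNA splicing and export genes (median 0.07), for which limma gave 2 and 2 at unadjusted p under 0.05, edgeR 0 and 0 calls and DESeq2 1 and 1 (edgeR called 13.5% and DESeq2 20.5% of all genes). Of 9 flavonoid genes 0 passed, with 2 at unadjusted p under 0.05, 1 edgeR call and 2 DESeq2 calls. With the flow cell as a block, limma called 1 flavonoid gene higher, and also 1 without nkd replicate 2. In basal transfer layer genes 0 of 16 passed in limma although the median was 1.82, with 1 at unadjusted p under 0.05, 1 edgeR call and 2 DESeq2 calls. With the flow cell as a block, limma called 2 of these genes higher. It called 1 higher without nkd replicate 1 and 1 lower without nkd replicate 3. Their summed value was 860.5 to 11543 in nkd libraries and 576 to 1542 in B73 libraries, and the highest nkd library stood well above the rest. Some lists held few calls. Of 9 seed maturation protein genes 1 fell and 0 rose, with a median of 0.62, and of 22 genes of folding and secretion in the endoplasmic reticulum 2 fell and 0 rose, with a median of -0.03. The shares of falls in these lists, 11.1% and 9.09%, were near the 8.28% of all genes. The first list had 1 rise without nkd replicate 2 or B73 replicate 3, and the second 1 fall without nkd replicate 1 or B73 replicate 1 or 2 and in the 12-library fit, and 4 falls in DESeq2. Genes of the TIFY repressors of jasmonate signalling had 2 rises and 1 fall of 20 (10% and 5%, near the 6.32% and 8.28% of all genes). Ethylene genes had 1 rise of 6 (16.7%), which was ACS6. Each of the 3 TIFY calls was lost on leaving out at least 1 library. The list had 0 rises without nkd replicate 1 or B73 replicate 1, 4 rises in DESeq2, 0 rises in the 12-library fit, 0 to 2 falls whichever 1 library was left out, 0 falls in edgeR, 0 falls in the 12-library fit and 0 falls with the flow cell as a block.

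**Figure D5:**
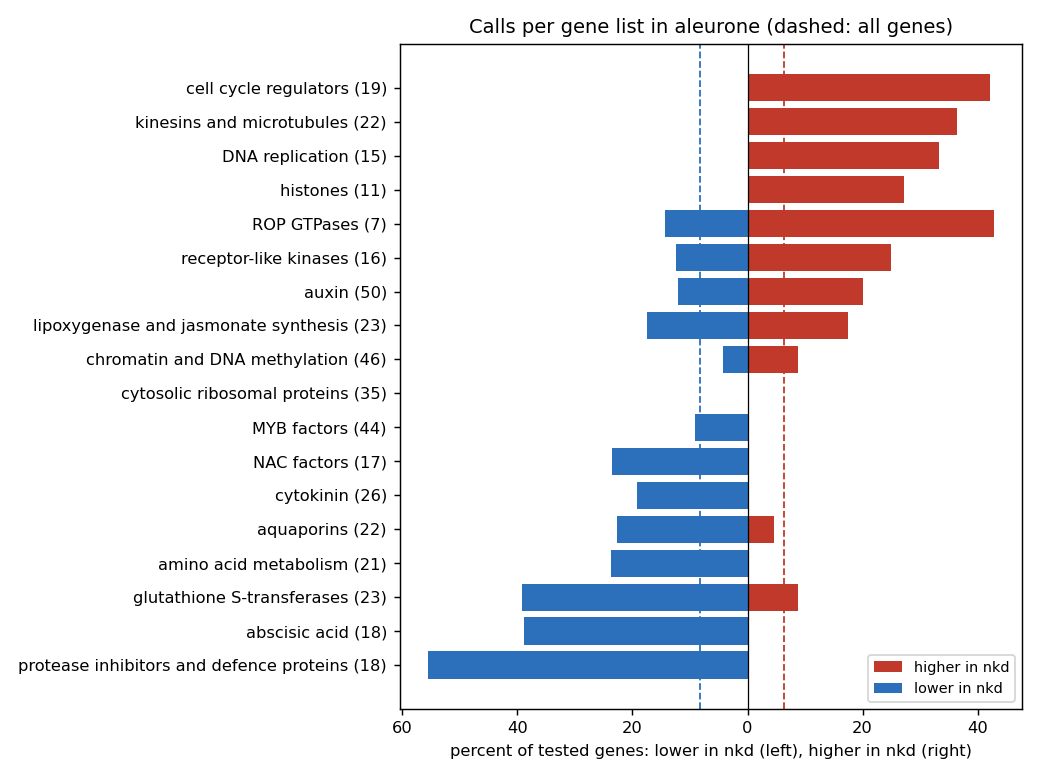
Share of tested genes per list (x axis, percent) that were higher in nkd aleurone (red, to the right) or lower (blue, to the left) by limma at an adjusted p of 0.05, for 18 lists, with the number of tested genes in brackets. Dashed lines mark the shares over all 26496 genes, 6.32% higher and 8.28% lower. Defence, glutathione S-transferase and abscisic acid lists exceed the left line by most, and ROP GTPase and cell division lists the right line. Several other lists exceed a line by less.

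In starchy endosperm the same contrast called fewer genes. With limma, 437 of 24578 genes differed there (1.78%), 114 higher (0.464%) and 323 lower (1.31%) in nkd. The starchy endosperm libraries held 9570833 to 57706796 reads. The part of depth and of spread among libraries in this lower count was not tested. Of the aleurone rises 1520 were tested there and 66 of them were also called higher, which is 4.34% of those rises and 58.4% of the 113 starchy endosperm rises tested in both. Of the aleurone falls 2010 were tested and 272 were also lower, which is 13.5% of those falls and 84.5% of the 322 starchy endosperm falls. Of the rises 87.6% had a positive difference in starchy endosperm, against 54.9% of all genes tested in both, and 88.3% of the falls had a negative one, against 45.1%. In starchy endosperm LOB15 fell by 4.44 on the log2 scale (limma adjusted p = 0.00595), crr2 fell by 4.29 (adjusted p = 0.00113) and cc6 fell by 4.23 (adjusted p = 0.00144), while Hsf26 rose by 3.90 (adjusted p = 0.0302).

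Several aleurone differences had small counterparts there. lox1 had a difference of -0.79 (limma adjusted p = 0.553), mas1 of 0.01 (adjusted p = 0.998) and naat1 of -0.32 (adjusted p = 0.722), none past the threshold. The difference between the cell types was tested itself. In edgeR's quasi-likelihood test on the recovered reads, 0 of 26496 genes had a genotype effect that differed between aleurone and starchy endosperm at an adjusted p of 0.05; the smallest adjusted p was 0.170. At unadjusted p under 0.05 there were 2128 genes (8.03%), and DESeq2 called 189 (0.713%). The unadjusted p was 0.00135 for lox1, 0.00352 for mas1 and 0.00048 for naat1, none past the threshold after adjustment, so no gene was shown by edgeR to respond to nkd in aleurone alone.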

How the data were processed

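Each library came from laser-captured cells and was deposited as a column of normalised signal, 1 value per transcript. The authors' values were whole multiples of 1 step per library (100% of values within 0.01 of a whole number of steps), so read counts could be recovered from the deposited signal; the 2 cell types were scaled in separate tables. FastQC, TopHat and DESeq appear without versions in the submitters' processing notes, while genome build, annotation and strand handling were not stated. Overlapping genes, antisense genes and near-identical copies can therefore share reads.

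Genes were tested with limma 3.58.1 (R 4.3.3) on log2(value + 1) with a mean-dependent prior, using the 6 aleurone libraries, a mean of at least 5 and Benjamini-Hochberg adjustment. edgeR 4.0.16 and DESeq2 1.42.0 used the recovered read counts, edgeR for the difference between cell types. On simulated counts for 26496 genes the limma test recovered 3.66%, 90.7% and 98.4% of 2-, 4- and 8-fold changes. The simulation gave every gene the same spread beyond counting error, so recovery can be lower for genes that vary more. It changed only 82, 54 and 64 genes by these folds, a smaller share than the 14.6% called in the data. The adjusted threshold is stricter when fewer genes change, so recovery in the data can also be higher. Depth was 9929132 to 64001712 reads per aleurone library, and 1 read was worth 0.600 to 3.79 units of value.

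Replicate numbers mark shared flow cells per the labels' protocols. Deviations from group means correlated by -0.13, 0.068 and -0.020 for the 3 same-numbered pairs of nkd and B73 libraries. The flow cell was a block only in an alternative fit.

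Names came from RefSeq (Zm-B73-REFERENCE-NAM-5.0), whose table has symbols and synonyms but no descriptions; 18774 of 39656 genes matched an entry and 2634 had a name. The naming rule took Nkd1 and Nkd2 and then, among named genes outside the zein and starch lists that were called without overlap of the groups, the 12 largest rises and falls with a mean of at least 100 and the 8 most highly expressed in each direction with a log2 difference of at least 1 in size. From each list it took up to 3 called members per direction and the top member, by mean value. Members beyond these, and examples given for on and off genes, were chosen after their values were seen. The comparison and the 92 gene lists were chosen with earlier results of these data known. From these lists 2 homonyms (the Asn1 name of nac4, and fl1) were dropped after values were seen.

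Alternatives covered the pseudocount, the mean filter, scaling, count models, the transcript chosen, the replicate block and each library left out.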

Additional observations from a re-analysis of the deposited data

How the results depend on the processing

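A fit over all 12 libraries called 1904 genes in aleurone, 603 higher and 1301 lower in nkd. Leaving out 1 library gave 1847 to 3658 calls, 745 to 1592 of them higher and 1102 to 2066 lower; all 3 were lowest without B73 replicate 1. With the flow cell as a replicate block the count was 2994, with 1235 higher and 1759 lower, and DESeq2 on read counts gave 5432; these and the other settings of pseudocount, filter, scaling, edgeR and transcript stayed within 1.5 times of 3868. Of the 1675 rises and 2193 falls, 612 and 942 passed whichever library was left out. Of the 163 genes run one by one (161 of the called genes named in the text, Nkd1 and dek1), 0 reversed direction in the 2919 combinations of gene and setting. Few reversals were possible, since 3853 of the 3868 called genes had no overlap between groups. The block and 12-library fits also keep the log2 difference of the main fit by design. Of these 161 called genes, 60 missed the threshold in the 12-library fit, 17 with the replicate block, 9 in edgeR and 0 in DESeq2, and 19 to 49 when 1 library was left out. The cause of these losses was not tested. For the difference between cell types, edgeR called 0 genes in the full fit, with the replicate block and at a mean of at least 1 or 50, and 0 to 1 with 1 library left out (1 without nkd starchy endosperm replicate 3), while DESeq2 called 189. In the simulated data, where fewer genes changed than were called here, 2-fold changes were mostly missed (3.66% recovered). A gene that did not pass may therefore still differ by that much. Every simulated gene had the same spread beyond counting error, so a gene that varies more may differ by more without passing. The basal transfer layer gene betl2, for example, had a log2 difference of 2.55 with limma adjusted p = 0.209.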
